A study of Homo sapiens with 4 samples.

Results

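The chromosome segregation machinery was examined in spheroids of MV3, a human melanoma cell line, through 54 genes of the centromere, the kinetochore, the spindle checkpoint, the mitotic kinases and the onset of anaphase. The genes were chosen by name, and the list was drawn up with earlier results of these data known, so it is not an independent choice. BUB1B, TTK, MAD2L1, BIRC5 and GTSE1 among them are named in the study's own text. They are 54 of the 56306 gene rows in the count table, 52 of them under the listed symbol and the shugoshins SGOL1 and SGOL2 under their current symbols SGO1 and SGO2. All 54 passed the filter on low counts, as did 15529 genes in all.

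The cells carried a histone reporter (H2B-GFP) in both groups, and no other genotype or treatment was given in the labels. Spheroids of 50000 cells and 1 mm diameter were placed in collagen I. A biopsy punch of 1 mm removed the core on day 2, and one of 3 mm the invasion zone around it, the collagen gel into which cells had moved. There were 2 libraries of core and 2 of invasion zone, each from total RNA. The labels do not say that the replicates came from separate cultures, so the p-values measure only the spread between these samples, which may be technical. MV3 is 1 cell line, and a punch holds every cell within its diameter.

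The kinetochore is the protein assembly that ties a chromosome to spindle microtubules. It is built on centromeric chromatin marked by the histone variant CENP-A. Constitutive centromere proteins sit on that chromatin through the cell cycle, while the outer kinetochore, the checkpoint proteins and the kinases act when cells divide. The spindle checkpoint holds the anaphase-promoting complex in check until every kinetochore is attached, after which its activator CDC20 starts the destruction of securin and the release of sister chromatids. Many of the genes are transcribed in G2 and mitosis, in part through a promoter element called the cell cycle genes homology region (CHR), which often lies next to CCAAT boxes.

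Total counts were 36363358 and 14983135 in core replicates 1 and 2, and 37591782 and 11789243 in invasion zone replicates 1 and 2. Mitochondrial genes held 1.06% to 1.72% of the counts. Levels are given as CPM, counts scaled to a common library total with the TMM correction, in the order core 1, core 2, invasion zone 1, invasion zone 2. Of 8 melanocyte lineage markers, 6 stayed under 1 CPM in every library, SOX10 and TYR had no count, and the summed level of the list was 3.58 to 3.91 CPM in the core and 2.91 to 6.05 in the invasion zone. Of 3 dedifferentiated melanoma markers, AXL and EGFR were present and NGFR was under 1 CPM, and the summed level was 768 and 820 CPM in the core and 1417 and 1327 in the invasion zone. AXL alone was at 633 and 628 CPM in the core and 1222 and 1120 in the invasion zone. Of 5 markers of other cell types, all but the endothelial PECAM1 were under 1 CPM, and the summed level of that list was 18.3 and 7.55 CPM in the core and 5.33 and 0.925 in the invasion zone. The cycling markers MKI67, TOP2A and PCNA together stood at 213 and 338 CPM in the core and at 576 and 603 in the invasion zone. Their part in the differences given here was not tested. In bulk samples, fewer dividing cells and less of a transcript per cell cannot be told apart.

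Promoter windows of 250 bases before to 50 bases after the gene start were read from RefSeq (GRCh38.p14) for 45 of the 54 genes. The windows of 3 genes with large differences between the zones and a CHR core ahead of the start are shown, followed by those of CENPC and CENPT, the constitutive centromere genes with the smallest differences. Each is the 250 bases before the start, 5′ to 3′ on the strand of the gene. Capitals mark the CHR core (TTTGAA, or TTCAAA on the other strand) and the CCAAT box (CCAAT, or ATTGG on the other strand).
GTSE1, chr22:46296620-46296869, plus strand: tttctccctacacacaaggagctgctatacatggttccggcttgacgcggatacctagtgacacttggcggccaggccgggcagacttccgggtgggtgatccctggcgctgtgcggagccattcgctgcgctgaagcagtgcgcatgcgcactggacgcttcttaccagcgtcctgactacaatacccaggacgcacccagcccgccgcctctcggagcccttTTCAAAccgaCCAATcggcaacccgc
ZWINT, chr10:56361260-56361509, minus strand: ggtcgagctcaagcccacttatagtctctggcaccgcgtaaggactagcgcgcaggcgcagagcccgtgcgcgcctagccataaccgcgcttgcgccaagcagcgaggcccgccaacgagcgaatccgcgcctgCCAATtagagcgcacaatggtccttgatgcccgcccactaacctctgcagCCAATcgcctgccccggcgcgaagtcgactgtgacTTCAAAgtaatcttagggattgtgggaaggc
CDC20, chr1:43358731-43358980, plus strand: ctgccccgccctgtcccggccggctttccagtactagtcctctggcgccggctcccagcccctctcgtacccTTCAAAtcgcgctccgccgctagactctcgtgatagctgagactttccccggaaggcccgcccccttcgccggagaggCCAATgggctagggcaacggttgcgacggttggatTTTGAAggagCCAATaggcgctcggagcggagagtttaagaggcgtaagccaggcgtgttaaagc
CENPC, chr4:67545504-67545753, minus strand: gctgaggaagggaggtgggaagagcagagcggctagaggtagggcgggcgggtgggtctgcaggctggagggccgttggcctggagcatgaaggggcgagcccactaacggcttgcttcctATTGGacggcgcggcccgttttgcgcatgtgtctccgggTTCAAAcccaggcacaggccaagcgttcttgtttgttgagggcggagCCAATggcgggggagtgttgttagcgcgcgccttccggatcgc
CENPT, chr16:67847694-67847943, minus strand: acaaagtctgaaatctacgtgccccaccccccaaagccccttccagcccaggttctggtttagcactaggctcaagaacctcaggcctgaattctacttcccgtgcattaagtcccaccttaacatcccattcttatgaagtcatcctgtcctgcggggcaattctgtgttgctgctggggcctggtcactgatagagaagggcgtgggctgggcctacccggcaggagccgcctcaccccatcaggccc
GTSE1 and ZWINT each held 1 CHR core close to the start and CDC20 held 2 farther upstream. The CENPC window also had a CHR core, 90 bases ahead of the start, with CCAAT boxes on both sides. The CENPT window had neither motif.

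The whole set stood higher in the invasion zone. The 54 genes together took 1834 and 3346 CPM in the core and 4877 and 6239 CPM in the invasion zone. The 54 genes had a median log2 fold change (invasion zone over core) of 1.29, and 51 of the 54 were above 0. All genes tested had a median of -0.01, which the TMM scaling keeps small by design. Within replicate 1 the median log2 difference was 1.65, and within replicate 2 it was 1.01. The zones did not overlap in 47 of the 54 genes with the invasion zone higher, against 28.1% of all genes tested, and in 1 gene, FZR1, with the invasion zone lower, against 30.3%.

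The outcome of the test depended on how the replicate number was treated. In edgeR's quasi-likelihood test without a replicate term, no gene of the 15529 was called at a Benjamini-Hochberg adjusted p under 0.05 and a 2-fold change (0% higher and 0% lower), and so none of the 54. The smallest of all was an adjusted p of 0.128. With p under 0.05 unadjusted and 2-fold, 39 of the 54 were higher and none was lower, against 2.92% and 5.85% of all genes. Without the fold minimum these were 45 and 0 of the 54, against 11.9% and 12.4%. The protocol took each core with the invasion zone around it, which is read here as pairing same-numbered libraries although the labels do not say so outright. Once the replicate number entered as a block, 42 of the 54 genes were called higher and none lower, against 3.41% of all genes called higher and 7.06% called lower. With the block and no fold minimum, 48 were higher and none lower, against 19.4% of all genes in each direction. SE and p with the block rest on how alike the 2 within-replicate differences of a gene are, not on the spread within a zone. That leaves 1 degree of freedom per gene, so the fit borrows the spread of other genes. DESeq2 without a block called 38 of the 54 higher and none lower, against 2.28% and 3.53% of all genes, and limma voom called none. Without core replicate 1 the unblocked edgeR test called only CENPE, and without core replicate 2, invasion zone replicate 1 or invasion zone replicate 2 it called 44, 41 and 32 of the 54. The words "called" and "rose" refer to the edgeR fit with the replicate block unless stated otherwise, and edgeR without the block made none of those calls with the same filter and all 4 libraries, while all 38 genes called by DESeq2 without a block were among the 42.

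**Figure D1:**
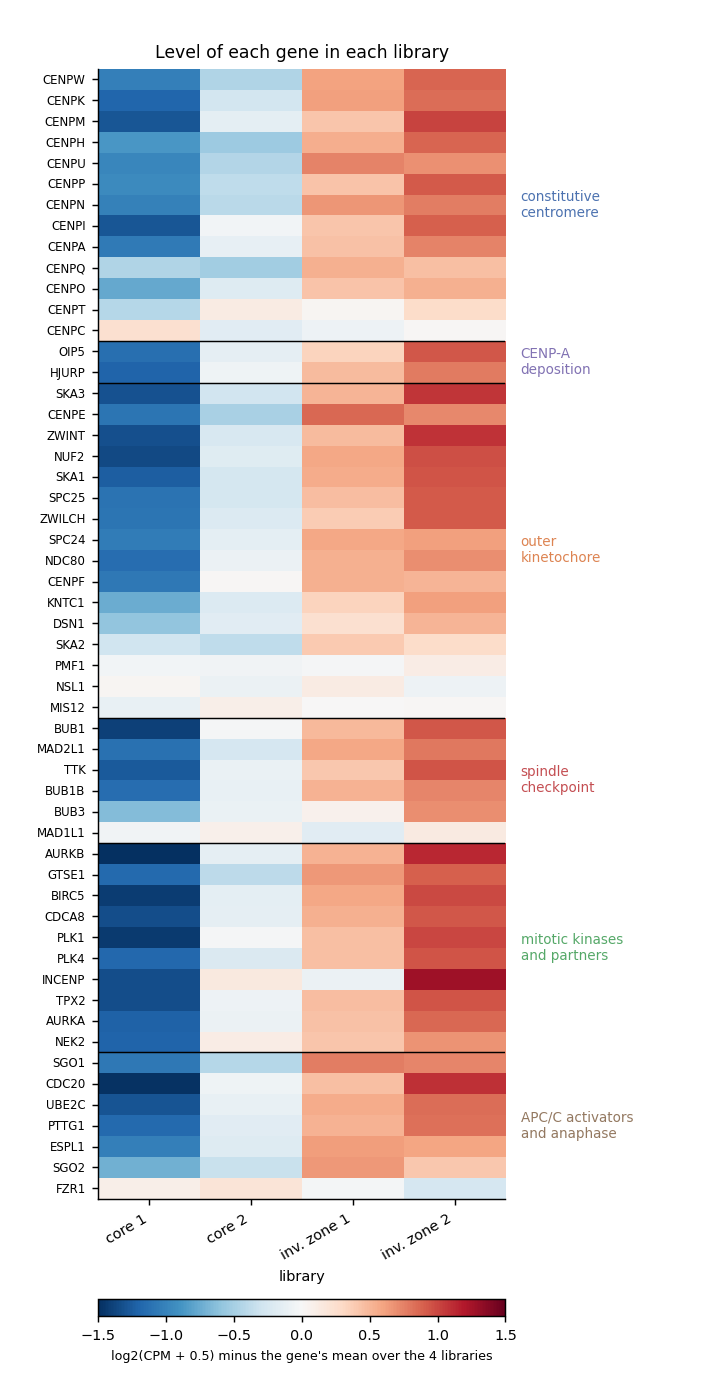
Level of the 54 genes in the 4 libraries. Rows are genes grouped by role, columns are libraries, and colour is log2(CPM + 0.5) minus the mean of that gene over the 4 libraries. Core replicate 1 is the lowest library for most genes. Both invasion zone libraries are above both core libraries in 47 of 54 genes, PMF1 among them, against 28.1% of all genes tested. Both are below in 1 gene, FZR1, against 30.3%. CENPC, PMF1, NSL1, MIS12, MAD1L1 and FZR1 show little colour in any library.

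The core libraries differed from each other. Core replicate 2 was above core replicate 1 in 49 of the 54 genes, by a median of 0.91 on the log2 scale. The median gap between these libraries over all genes tested was 0.00, which the TMM scaling keeps small by design. Between the invasion zone libraries the median gap was 0.29, with replicate 2 higher in 44 genes. The gap between core libraries was widest for INCENP (1.48), CDC20 (1.42), PLK1 (1.42), BUB1 (1.39) and AURKB (1.37). The signed zone difference was higher within replicate 1 than within replicate 2 in 50 of the 54 genes. Leaving out core replicate 1 lowered the median log2 fold change of the 54 genes from 1.29 to 0.83, and leaving out core replicate 2 raised it to 1.85. The direction did not change in either case.

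**Figure D2:**
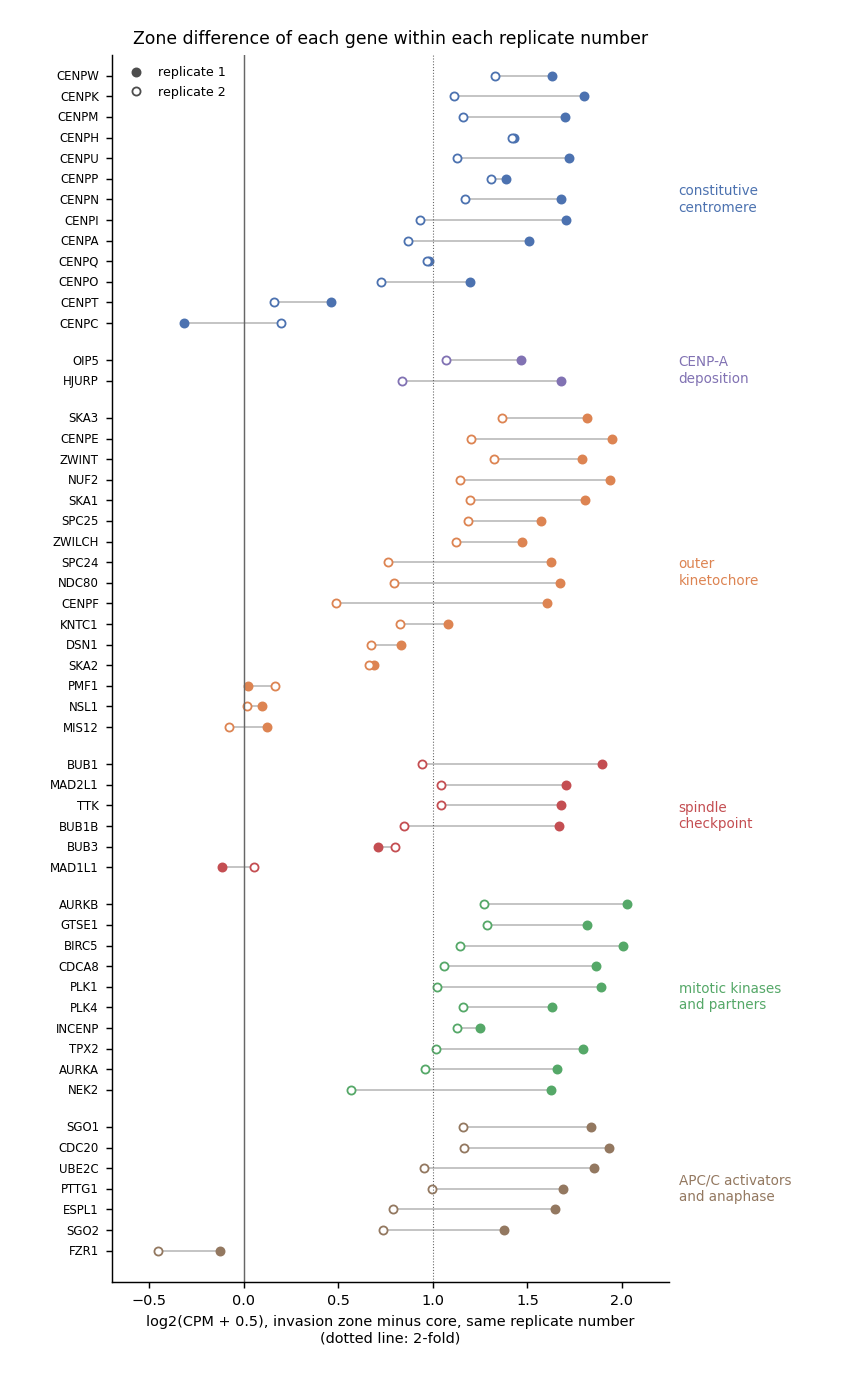
Zone difference of each gene within each replicate number. Each row is a gene, filled points are replicate 1 and open points replicate 2, and the horizontal axis is log2(CPM + 0.5) of the invasion zone minus that of the core, with a dotted line at 2-fold. In 50 genes both points lie above 0, and the replicate 1 point lies to the right of the replicate 2 point for 50 of 54.

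Among the 13 constitutive centromere genes, 10 were called and 12 passed the adjusted p without the fold minimum. Their median log2 fold change was 1.40, against 1.28 for the 39 genes of the outer kinetochore, checkpoint, kinases and anaphase combined, of which 30 were called. The order of these medians was not stable. Within replicate 1 the constitutive genes had a median log2 difference of 1.51 and the other 39 genes 1.67, and within replicate 2 the medians were 1.11 and 1.00. Without core replicate 2 the constitutive median was 1.73, below those of every other role (1.77 to 2.08). The gap between the core libraries had a median of 0.57 for the constitutive genes and 0.98 for the other 39.

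CENPW, a histone-fold protein that pairs with CENPT, had the largest difference of the constitutive genes. It stood at 7.0, 10.7, 22.8 and 27.7 CPM (log2 fold change 1.52, SE 0.27 without the block and 1.54, SE 0.15, edgeR adjusted p = 0.000165 with it). Its partner CENPT was at 50.9, 74.7, 70.2 and 83.6 CPM, and the libraries of the zones overlapped (log2 fold change 0.29, SE 0.23 without the block and 0.32, SE 0.10, edgeR adjusted p = 0.0378 with it). CENPT passed the adjusted p with the block but was well short of 2-fold. The CENPW to CENPT ratio was 0.138 and 0.144 in the core and 0.324 and 0.331 in the invasion zone, a change of 2.36-fold in replicate 1 and 2.3-fold in replicate 2.

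CENPC, which bridges CENP-A nucleosomes and the outer kinetochore, had 27.0, 20.1, 21.5 and 23.1 CPM. Its invasion zone values lay between the core values (log2 fold change -0.08, SE 0.20 without the block and -0.09, SE 0.15, edgeR adjusted p = 0.678 with it). CENPA itself, the centromeric histone, rose from 20.9 and 40.7 CPM in the core to 60.3 and 74.6 in the invasion zone (log2 fold change 1.21, SE 0.15, edgeR adjusted p = 0.000403 with the block). The CENPA to CENPC ratio was 0.775 and 2.02 in the core and 2.80 and 3.23 in the invasion zone. The remaining constitutive genes were a compact group. CENPH, CENPI, CENPK, CENPM, CENPN, CENPP, CENPQ and CENPU had log2 fold changes of 1.02 (CENPQ) to 1.48 (CENPH) without the block and were called with it, and CENPO reached 0.96 without the block and 1.00 with it, just under the 2-fold line. CENPH and CENPQ differed little between replicates: within replicates 1 and 2 the log2 differences were 1.43 and 1.42 for CENPH and 0.98 and 0.97 for CENPQ.

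The 2 factors that place CENP-A into chromatin, the chaperone HJURP and the MIS18 complex subunit OIP5, were both called. HJURP was at 37.8, 83.9, 122 and 150 CPM (log2 fold change 1.17, SE 0.38 without the block and 1.27, SE 0.17, edgeR adjusted p = 0.000597 with it). OIP5 was scarcer, at 3.46, 7.42, 10.4 and 16.1 CPM (log2 fold change 1.30, SE 0.44 without the block and 1.36, SE 0.20, edgeR adjusted p = 0.00093 with it). All but a small part of the OIP5 exons is shared with genes on the other strand, 1111 of 1201 bases in GENCODE release 44, among them OIP5-AS1 and NUSAP1. The counting's strand setting is not given in the sources used here, so reads from OIP5 and those genes cannot be told apart. Of the 54 genes, 35 share no exonic base with another gene, 5 share some on their own strand and 15 some on the opposite strand.

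Within the outer kinetochore, the MIS12 complex stood apart from the NDC80 complex that it recruits. None of the 4 MIS12 complex genes was called, and their median log2 fold change was 0.08. All 4 NDC80 complex genes were called, with a median of 1.30. MIS12 had 24.7, 28.6, 27.0 and 27.1 CPM, with both invasion zone values between the core values (log2 fold change 0.02, SE 0.16 without the block and edgeR adjusted p = 0.862 with it). Its sign turned under upper-quartile scaling and some other settings. NSL1 at 34.1 to 39.6 CPM and PMF1 at 37.0 to 41.4 CPM were as level across the 4 libraries. PMF1 shares 587 of its 2520 exonic bases with the readthrough gene PMF1-BGLAP on the same strand. DSN1 was the exception in this complex, at 43.6, 58.6, 78.1 and 93.6 CPM. Both its invasion zone values were above both core values, and it passed the adjusted p with the block below 2-fold (log2 fold change 0.76, SE 0.09, edgeR adjusted p = 0.000403). The DSN1 to MIS12 ratio changed 1.64-fold in replicate 1 and 1.69-fold in replicate 2.

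The NDC80 complex is the microtubule-binding arm of the kinetochore. NUF2 was at 18.5, 42.5, 72 and 94.2 CPM (log2 fold change 1.46, SE 0.41 without the block and 1.56, SE 0.17, edgeR adjusted p = 0.000242 with it). NDC80 was at 32.8, 68.3, 106 and 119 CPM (log2 fold change 1.16, SE 0.35 without the block and 1.25, SE 0.18, edgeR adjusted p = 0.00081 with it). In both genes the invasion zone libraries lay above the core libraries, and the core libraries were themselves more than 2-fold apart. SPC24 and SPC25, which anchor the complex to the inner kinetochore, had log2 fold changes of 1.20 and 1.39 without the block. The NDC80 to MIS12 ratio was 1.33 and 2.39 in the core and 3.92 and 4.39 in the invasion zone, and that of NUF2 to NSL1 was 0.50 and 1.24 against 1.82 and 2.73.

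**Figure D3:**
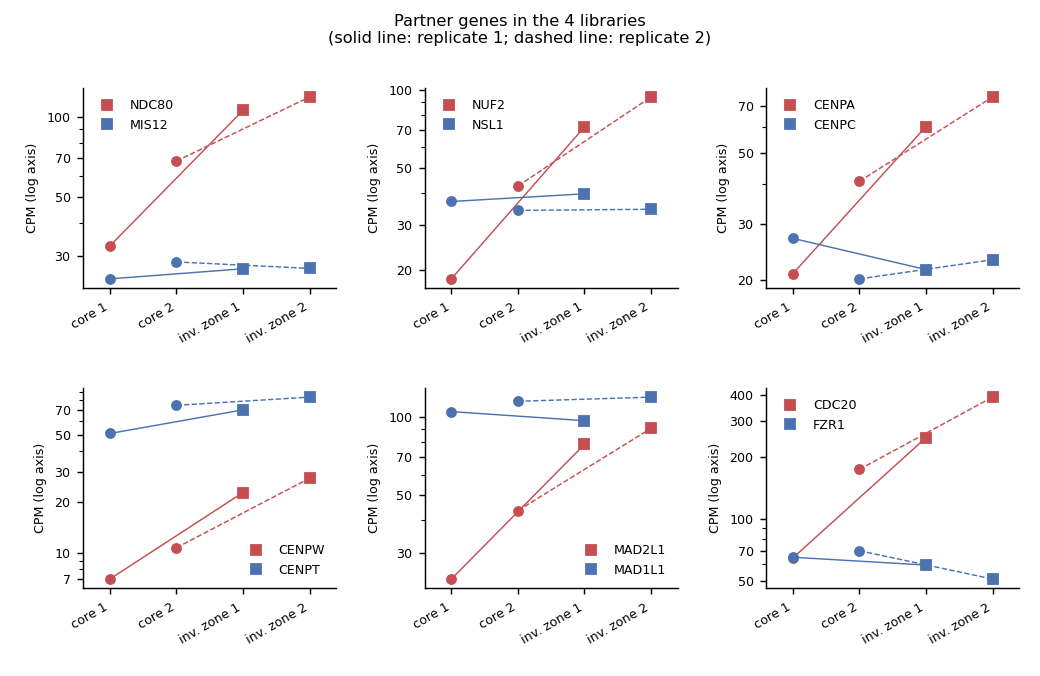
CPM of 6 pairs of genes whose products bind each other or share a role, in the 4 libraries on a log axis that differs between panels. Circles are core libraries, squares invasion zone libraries, and lines join libraries of the same replicate number. In each panel 1 partner (NDC80, NUF2, CENPA, CENPW, MAD2L1, CDC20) is higher in both invasion zone libraries, and the other (MIS12, NSL1, CENPC, CENPT, MAD1L1, FZR1) differs far less. Each pair sets a called gene against one that was not called, so the contrast follows from the choice of pairs. In other pairs, such as SKA1 and SKA3, both genes were called.

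The SKA complex stabilises the hold of NDC80 on microtubules, and SKA3 had the highest log2 fold change of the 54 without the block, and the next highest after AURKB with it. SKA3 was at 7.26, 15.2, 26.8 and 39.8 CPM (log2 fold change 1.59, SE 0.40 without the block and 1.65, SE 0.15, edgeR adjusted p = 0.000129 with it). SKA1 was close to it at 1.47 without the block and was called. SKA2 was at 36.0, 34.0, 58.3 and 54 CPM, higher in both invasion zone libraries but under 2-fold (log2 fold change 0.68, SE 0.14 without the block and 0.68, SE 0.10, edgeR adjusted p = 0.000825 with it). Core replicate 2 differed from core replicate 1 by 1.01 on the log2 scale for SKA3 and by -0.08 for SKA2.

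ZWINT tethers the RZZ complex, which brings dynein and the checkpoint proteins MAD1 and MAD2 to the kinetochore. ZWINT was at 21.2, 45.3, 74.3 and 114 CPM (log2 fold change 1.51, SE 0.41 without the block and 1.58, SE 0.12, edgeR adjusted p = 8.34e-05 with it), the smallest adjusted p of the 54 with the block. The RZZ subunit ZWILCH was called as well, while KNTC1, the ROD subunit, was just under 2-fold at 26.7, 39.1, 56.9 and 69.6 CPM (log2 fold change 0.95, SE 0.23 without the block and 0.97, SE 0.11, edgeR adjusted p = 0.000245 with it). In the fibrous corona, the kinesin CENPE was at 43.0, 65.7, 167 and 152 CPM (log2 fold change 1.56, SE 0.23 without the block and 1.59, SE 0.16, edgeR adjusted p = 0.000162 with it). CENPF, a large coiled-coil protein that accumulates in G2, was at 80.9, 172, 247 and 242 CPM. Its log2 difference was 1.61 within replicate 1 and 0.49 within replicate 2, the widest gap between replicates of the genes in the outer kinetochore. Without the block its log2 fold change was 0.95, SE 0.36, under 2-fold. With the block it was 1.06, SE 0.21 (edgeR adjusted p = 0.00431).

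Of the 6 spindle checkpoint genes, 4 were called, BUB3 passed the adjusted p under 2-fold and MAD1L1 did not pass. MAD2L1 encodes the effector that binds CDC20, and was at 23.7, 43.6, 78.4 and 90.4 CPM (log2 fold change 1.33, SE 0.31 without the block and 1.40, SE 0.15, edgeR adjusted p = 0.000226 with it). MAD1L1 encodes the kinetochore scaffold of that effector, and was at 105, 115, 96.8 and 119 CPM with overlapping zones (log2 fold change -0.03, SE 0.16 without the block and -0.03, SE 0.09, edgeR adjusted p = 0.789 with it). Its sign turned in some other settings. Corrected for GC content and length, with the block, it was 0.27 (edgeR adjusted p = 0.03). The MAD2L1 to MAD1L1 ratio was 0.226 and 0.379 in the core and 0.810 and 0.758 in the invasion zone, a change of 3.58-fold and 2.00-fold in replicates 1 and 2. MAD1L1 shares 3004 of its 6955 exonic bases with another annotated gene on the same strand, and nothing in the sources used here says how reads in such stretches were counted.

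The checkpoint kinase TTK (MPS1) was at 23.3, 53.1, 75.5 and 110 CPM (log2 fold change 1.29, SE 0.42 without the block and 1.38, SE 0.15, edgeR adjusted p = 0.00021 with it). BUB1B, the BUBR1 subunit of the inhibitor complex, was at 16.4, 34.0, 53.1 and 61.4 CPM (log2 fold change 1.20, SE 0.36 without the block and 1.29, SE 0.18, edgeR adjusted p = 0.000702 with it). In both genes the invasion zone libraries lay above the core libraries. BUB1, the kinase that marks the centromere for shugoshin, was close to TTK at 1.28 without the block. BUB3, the shared partner of BUB1 and BUBR1, ranged from 226 to 575 CPM, with differences of 0.71 and 0.80 within the replicates. Together with CENPC, PMF1 and MAD1L1, it was 1 of 4 genes whose signed difference was higher within replicate 2 than within replicate 1.

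All 10 mitotic kinases and partners were called. The chromosomal passenger complex, which corrects wrong attachments, consists of the kinase AURKB, the scaffold INCENP, CDCA8 (borealin) and BIRC5 (survivin), with a median log2 fold change of 1.41. AURKB was at 18.5, 48.6, 77.0 and 118 CPM (log2 fold change 1.55, SE 0.48 without the block and 1.67, SE 0.17, edgeR adjusted p = 0.000167 with it). CDCA8 was at 38.4, 89.1, 141 and 186 CPM (log2 fold change 1.37, SE 0.41 without the block and 1.47, SE 0.16, edgeR adjusted p = 0.000254 with it). BIRC5 was at 64.7, 158, 261 and 348 CPM (log2 fold change 1.46, SE 0.43 without the block and 1.58, SE 0.17, edgeR adjusted p = 0.000228 with it). These 3 subunits ran in the same order over the libraries, core 1 lowest and invasion zone 2 highest. INCENP was the least counted gene of the set with 31, 50, 103 and 93 counts, and was the 1 called gene whose zones overlapped, at 0.865, 3.31, 2.75 and 7.82 CPM. Its log2 fold change was 1.37, SE 0.80 without the block and 1.44, SE 0.29, edgeR adjusted p = 0.00487 with it. The log2 differences within the replicates were 1.25 and 1.13. At such low levels the 0.5 added to the CPM lowers these differences, more so in replicate 1. How close they are therefore says little about this gene.

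GTSE1, a microtubule protein expressed in G2 that binds Aurora A and stabilises spindle microtubules, had the largest difference of the remaining kinase genes and partners. It was at 17.3, 29.9, 62.2 and 73.6 CPM (log2 fold change 1.53, SE 0.29 without the block and 1.58, SE 0.14, edgeR adjusted p = 0.000106 with it). NEK2, a centrosome kinase, had the smallest at 9.52, 24.3, 30.3 and 36.2 CPM (log2 fold change 0.99, SE 0.44 without the block and 1.14, SE 0.22, edgeR adjusted p = 0.00408 with it). Its log2 difference was 1.62 within replicate 1 and 0.57 within replicate 2. AURKA, its activator TPX2, the master mitotic kinase PLK1 and the centriole duplication kinase PLK4 lay between, at 1.22, 1.29, 1.32 and 1.38 without the block. TPX2 was the most abundant of them at 144 and 346 CPM in the core and 501 and 700 in the invasion zone. AURKA has near-identical processed copies in the genome, as does PTTG1, and their counts are uncertain to that extent.

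At the end of mitosis, both shugoshins, which guard centromeric cohesion, were called. SGO1 was at 5.22, 8.41, 19.9 and 19.4 CPM (log2 fold change 1.55, SE 0.28 without the block and 1.60, SE 0.20, edgeR adjusted p = 0.000439 with it), and SGO2 at 27.7, 36.5, 72.7 and 61.2 CPM (log2 fold change 1.07, SE 0.20 without the block and 1.09, SE 0.15, edgeR adjusted p = 0.000654 with it). The invasion zone libraries lay above the core libraries in both. The activators of the anaphase-promoting complex parted. CDC20, the activator used in mitosis, was at 64.5, 174, 248 and 390 CPM (log2 fold change 1.42, SE 0.50 without the block and 1.56, SE 0.16, edgeR adjusted p = 0.00017 with it). FZR1, the activator of late mitosis and G1, was at 65.0, 69.9, 59.5 and 50.9 CPM, lower in both invasion zone libraries than in either core library, and did not pass the test (log2 fold change -0.29, SE 0.15 without the block and -0.28, SE 0.11, edgeR adjusted p = 0.067 with it). Its sign turned once counts were corrected for GC content and length. The CDC20 to FZR1 ratio was 0.992 and 2.49 in the core and 4.16 and 7.65 in the invasion zone. The E2 enzyme UBE2C, the securin PTTG1 and the separase ESPL1 were called, with log2 fold changes of 1.30, 1.28 and 1.19 without the block.

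Across the 54 genes, 42 were called, 6 passed the adjusted p under 2-fold (CENPO, CENPT, DSN1, KNTC1, SKA2 and BUB3) and 6 did not pass (CENPC, NSL1, MIS12, PMF1, MAD1L1 and FZR1). The last 6 also differed little between replicates: core replicate 2 was within -0.41 to 0.21 of core replicate 1 on the log2 scale, with a median gap of 0.05, against 1.01 for the 42 called genes. Per kilobase of annotated exon, the highest levels averaged over the 4 libraries were those of UBE2C (136 CPM per kb), TPX2 (117) and CDC20 (109), and the lowest those of INCENP (0.827) and CENPP (0.834). Exons of all transcripts were merged, so genes with long annotation, such as CENPP with 9315 bases, come out low by this measure. MAD1L1 (15.7) and PMF1 (15.2), which did not pass, were in the middle of that range.

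In a list of 66 other mitotic genes, 32 were called higher and none lower, and the median log2 fold change was 0.87. Without the fold minimum, 50 were higher and 3 lower. The 3 with the largest log2 fold changes were the phosphatase CDC25C, the kinase PKMYT1 and the midzone bundler PRC1. CDC25C was at 4.33, 9.61, 17.7 and 25.6 CPM (1.66, SE 0.43), PKMYT1 at 21.7, 55.7, 91.7 and 144 CPM (1.62, SE 0.48) and PRC1 at 33.8, 68.0, 129 and 151 CPM (1.46, SE 0.34), all without the block, and all 3 were called with it. The 3 lowest were the spindle pole protein NUMA1 at 166, 155, 124 and 94.5 CPM (-0.56, SE 0.18), the anaphase-promoting complex subunit ANAPC16 at 128, 115, 98 and 76.3 CPM (-0.48, SE 0.17) and the phosphatase CDC25B at 124, 81.7, 89.6 and 61.4 CPM (-0.44, SE 0.28). These are the 3 that were lower with the block at adjusted p = 0.00156, 0.00272 and 0.00362 (edgeR), each under 2-fold.

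The groups of that list differed in how many genes were called. Spindle assembly and midzone genes had 17 of 22 called and a median of 1.17. Of the anaphase-promoting complex subunits and their partners 2 of 16 were called, the E2 enzyme UBE2S and the inhibitor FBXO5, and the median was 0.25. Neither CDC16, CDC23 or CDC27 nor any ANAPC subunit, which form the enzyme that CDC20 and FZR1 activate, was called. Without the fold minimum 9 of the 16 were higher and 1 was lower. Among genes for mitotic entry 5 of 12 were called (CDK1, CCNB1, CCNB2, CDC25C and PKMYT1), with a median of 0.54. Of other centromere and kinetochore genes 4 of 10 were called (CENPL, CENPS, KNL1 and SPDL1), and of other checkpoint and passenger genes 4 of 6 (TRIP13, HASPIN, CDCA5 and BORA). KNL1, the third arm of the outer kinetochore beside the NDC80 and MIS12 complexes, had a log2 fold change of 1.31 without the block.

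**Figure D4:**
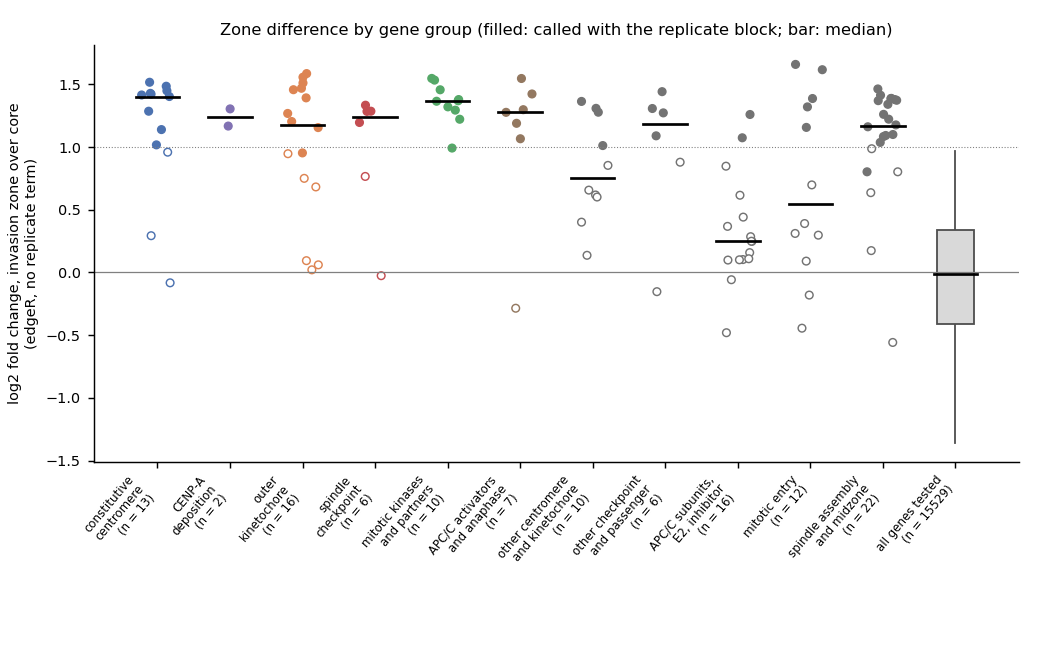
Log2 fold change, invasion zone over core (edgeR without a replicate term) for the 54 genes by role (coloured), 66 other mitotic genes by group (grey) and all 15529 genes tested. Points are genes, filled where called with the replicate block, short bars are medians, and the box of all genes spans its quartiles (-0.41 to 0.34) with lines to the 5th and 95th percentiles (-1.36 and 0.97). The groups of the 54 genes have medians of 1.18 to 1.40, and the anaphase-promoting complex group has 0.25.

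The CHR core was found in the promoter windows of 22 of the 45 genes with a window (48.9%), against 15.4% of 27305 windows. Each symbol with a window gave 1, the first listed, and other starts of a gene were not searched. CCAAT boxes were in 30 of 45 (66.7%), against 35.7%. The E2F site letters TTTCCCGC were in 2 of 45 (4.44%), against 1.66%, and TTTGGCGC in 1 (2.22%), against 0.659%. All motifs were searched on both strands, and none contains another. Counting only the bases before the start, the CHR core was in 13 of 45 (28.9%), against 13.6% of all windows. Of the 24 CHR cores, 11 began within 50 bases ahead of the start and 7 after it. Of the 22 genes with a CHR core anywhere in the window 19 were called, and of the 23 without one 16. Counting only the bases before the start, 11 of 13 and 24 of 32 were called. The 3 genes with a CHR core that were not called were CENPO, just under 2-fold, and CENPC and FZR1, whose CHR cores lay 90 and 226 bases ahead of the start. The genes without a CHR core included AURKB, BUB1, CENPE and SGO1, with log2 fold changes of 1.55, 1.28, 1.56 and 1.55 without the block. The core replicate gap had a median of 1.00 for the 22 genes and 0.58 for the 23. A match of letters is a description of the window and not a binding site. For the CHR core only TTTGAA and its reverse were searched, so a missing match does not show that the element is absent.

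**Figure D5:**
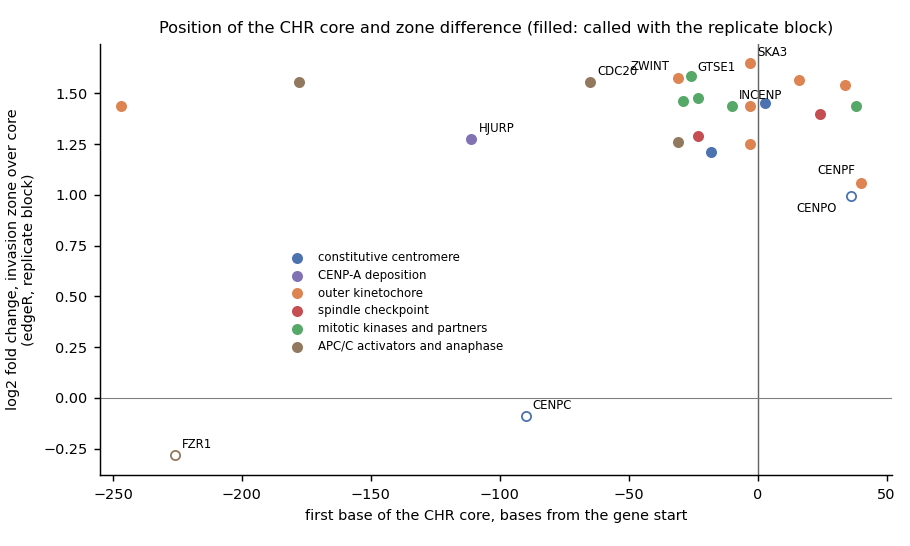
Position of each CHR core against the zone difference of its gene. The horizontal axis is the first base of the motif in bases from the gene start (negative is upstream), the vertical axis the log2 fold change (invasion zone over core) with the replicate block. Filled points are called genes, CDC20 and SPC25 have 2 points each, and the open points are CENPO, CENPC and FZR1.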

How the data were processed

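RNA from core and invasion zone punches was made into cDNA with a low-input kit and sequenced. The authors deposited raw counts per gene: ribosomal reads were removed with Bowtie, the remaining reads aligned to hg38 with STAR, and uniquely mapped reads counted with HTSeq-count. On versions, annotation and strandedness, nothing is given in the sources used here.

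Of 56306 rows, 2 repeated rows without counts were left out. Genes were kept by filterByExpr (2 or more libraries with at least 10 counts, scaled to a library of median size, and 15 counts overall), which left 15529. Counts were tested in R 4.3.3 with edgeR 4.0.16 (quasi-likelihood, TMM, Benjamini-Hochberg over all genes tested), and a gene was called with a 2-fold or larger difference (1 on the log2 scale) at an adjusted p under 0.05. SE is the coefficient divided by the root of F. Within-replicate differences used log2(CPM + 0.5). The test was also run on simulated counts with a fixed spread, which does not show that the calls in these data are sound. DESeq2 1.42.0 and limma 3.58.1 were alternatives.

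The protocol takes a core with its invasion zone, which was read as pairing same-numbered libraries. Deviations from the zone means correlated at 0.64 between same-numbered libraries over the 15529 genes, with 2 pairs. Same-numbered libraries also had similar total counts. The correlation therefore cannot show that they came from the same spheroids. The replicates of a zone differed by more than sampling noise (chi-square per degree of freedom 33.8 in the core and 31.9 in the invasion zone).

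The members and lists were chosen with earlier results of these data known. Values in every library were given for the genes with the largest and smallest log2 fold change in each role, for BUB1B, TTK, MAD2L1, BIRC5 and GTSE1, for members lower in the invasion zone, and for 3 genes at each end of the other mitotic genes. CENPA, CENPT, INCENP, TPX2 and some others were named in addition after their values were seen. The pairs of genes set against each other as ratios were not planned either. Coordinates and exon overlaps are from GENCODE release 44, promoters from RefSeq GRCh38.p14.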

Additional observations from a re-analysis of the deposited data

How the results depend on the processing

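Without the block, edgeR called 0 genes higher and 0 lower, and RLE or upper-quartile scaling, limma voom, a minimum of 10 counts per library, no fold minimum, GC content and length offsets and thinning to the smallest library gave 0 as well. With the replicate block, which follows the pairing of same-numbered libraries, 530 of all genes were higher and 1097 lower, 42 of the 54 genes and 32 of the 66 other mitotic genes were higher. The block in DESeq2 gave 427 and 731 of all genes, 41 and 32. The block with no fold minimum, chosen after seeing the data, gave 3009 and 3007 of all genes, 48 of the 54 higher, and 50 of the 66 higher with 3 lower. The block with GC content and length offsets gave 775 and 1005 of all genes, 43 and 31. DESeq2 without a block gave 354 and 548, 38 and 30. No filter beyond 1 count gave 427 and 846, 40 and 31, and the unadjusted p gave 454 and 909, 39 and 31. The cause of these changes was not tested. No member was called lower under any of these settings. Every member called with the block in DESeq2, in DESeq2 without a block, without the filter or at the unadjusted p was among the 42.

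Leaving out each library in turn gave 13 to 632 genes higher and 125 to 1137 lower, 1 to 44 of the 54 and 0 to 34 of the 66, the lowest without core replicate 1 and the highest of the higher counts without core replicate 2. The library left alone in its zone is then assumed to vary like the other zone. The median log2 fold change ranged from 0.83 to 1.85 for the 54 genes, 1.03 to 1.73 for the constitutive genes, 0.78 to 1.90 for CENP-A deposition, 0.76 to 1.77 for the outer kinetochore, 0.76 to 1.83 for the checkpoint, 0.85 to 2.08 for the kinases and 0.87 to 1.87 for the anaphase genes. Under the other settings these medians moved by less than the spread between replicates.

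A change of sign was seen in 5 genes, all among the 6 that did not pass the adjusted p with the replicate block. MIS12 was -0.0106 under upper-quartile scaling, -0.00313 with a minimum of 10 counts per library, -0.0366 with GC content and length offsets and -0.0321 with those and the block. NSL1 was -0.000562 after thinning. MAD1L1 was 0.29 with the offsets and 0.27 with the offsets and the block (edgeR adjusted p = 0.03), and FZR1 was 0.12 and 0.13. Over the libraries left out, log2 fold changes ranged from -0.27 to 0.16 for CENPC, -0.0472 to 0.15 for NSL1, -0.0726 to 0.13 for MIS12, and -0.18 to 0.12 for MAD1L1. Counting only bases before the gene start, 13 genes held a CHR core in place of 22. With 2 libraries a zone, and at 11789243 counts in the smallest library, a difference in a gene such as INCENP (31 to 103 counts) is measured with little precision.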
